A study of Mus musculus with 30 samples.

Results

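The genes followed here across all 8 groups of the study belong to the circadian clock. They are 10 in number, Arntl, Clock, Per1, Per2, Cry1, Cry2, Nr1d1, Nr1d2, Dbp and Bhlhe40, chosen as a fixed list of symbols and found by their Ensembl identifiers. All 10 were among the 49089 identifiers of each sample, and all 10 were among the 11368 genes that passed a filter on low counts. Values are RNA-seq read counts from AML12 cells, an established mouse hepatocyte line, scaled to CPM, counts at a common library size, with the trimmed mean of M-values (TMM).

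The study asked how the forkhead transcription factors FoxK1 and FoxK2 take part in the transcriptional response to insulin. Control cells and cells with a knockdown of FoxK1 (FoxK1 KD), of FoxK2 (FoxK2 KD) or of both (DKD) were each analysed at basal and after insulin stimulation (100 nM, 6 h). The study's methods describe transient transfection of siRNA, so that all 4 genotypes come from 1 line, and all cells were serum starved overnight. Each group held 4 samples, except Control and DKD cells after insulin with 3 each, 30 samples in all. The labels give basal samples a treatment time of 0 h, whereas the treatment protocol speaks of a mock treatment, so that if the label holds, insulin and 6 h more in culture cannot be told apart in any comparison of insulin with basal. The labels do not say whether samples were separate cultures or on which day they were made, and p-values measure the spread between these samples only. In RNA from whole cultures, fewer cells that express a gene and less RNA per cell cannot be told apart.

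The clock is a loop of transcription factors. ARNTL (BMAL1) and CLOCK form a heterodimer that binds E-boxes and switches on the Period and Cryptochrome genes, the REV-ERB genes Nr1d1 and Nr1d2, Dbp and Bhlhe40. PER and CRY proteins inhibit the heterodimer, the REV-ERB receptors repress Arntl through ROR elements, DBP activates genes with D-boxes, and BHLHE40 (DEC1) competes for E-boxes. In liver, feeding and insulin are known to act on the phase of this loop, and many genes of glucose and lipid metabolism follow it.

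Total counts ran from 2141460 to 5668270 per sample. Mean Foxk1 was 81.4 CPM in Control and 36.8 CPM in FoxK1 KD cells at basal, and mean Foxk2 was 140.2 CPM in Control and 47.3 CPM in FoxK2 KD cells. In DKD cells at basal, Foxk1 was 46.5 CPM and Foxk2 50.2 CPM. After insulin, mean Foxk1 was 53.0 CPM in Control, 30.9 CPM in FoxK1 KD and 34.2 CPM in DKD cells. Mean Foxk2 was then 162.7 CPM in Control, 65.7 CPM in FoxK2 KD and 64.3 CPM in DKD cells. The Foxk2 mean also stood at 117 CPM in FoxK1 KD cells at basal, a log2 difference of −0.26 from Control (SE 0.08, adjusted p = 0.049), and Foxk1 fell with insulin in Control cells (log2 fold change −0.62, SE 0.13, adjusted p = 0.00037). Of the hepatocyte markers, Hnf4a ran from 89.6 to 152 CPM, but Alb from 2.50 to 65.2 CPM and Apoa1 from 0 to 2.82 CPM. The bile duct markers Krt19, 323 to 753 CPM, and Sox9, 168 to 296 CPM, were present, Epcam was at 0 in every sample, and summed leukocyte markers reached 4.43 CPM at most. Control basal replicate 1 stood apart from its group (mean correlation 0.970 with the other 3, which had 0.982 to 0.983). In addition, 12 libraries, the basal ones of Control, FoxK1 KD and FoxK2 KD cells, were compared with the other 18. In each of the 12, 52 genes were lower and 83 higher than in all 18. For these genes the DKD basal libraries lay on the same side of the 12 as the insulin libraries, but not necessarily at their level. Among the members, Nr1d2 is one of the 83. Its DKD basal samples, 95.04 to 119.6 CPM, still stood above every insulin sample, 84.4 CPM at most. What sets the 12 libraries apart was not tested.

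The start sites of the genes that moved are shown first, because part of the known wiring of the loop runs through short elements near start sites. RefSeq promoters (GRCm38.p6) covering 250 bases before to 50 bases after the start were held for 8 of the 10 members. Per2 and Bhlhe40 had no entry. Both strands were searched for the E-box CACGTG, the related E'-box CACGTT, the D-box TTATGTAA or TTACGTAA, the ROR element TAGGTCA or TAGGTTA, and the forkhead core TAAACA. The second ROR element was added to the search after the Arntl window had been read. Over 27025 promoters, 7.24% held the E-box, 4.77% the E'-box, 1.06% the D-box, 4.1% the ROR element and 13.4% the forkhead core. These shares count the first listed promoter of each gene only. The windows printed are those of Arntl, which rose with insulin in every genotype, and of Nr1d2 and Dbp, which fell, with capitals marking matched elements.
Arntl, second start site, chr7:113207261-113207560, plus strand: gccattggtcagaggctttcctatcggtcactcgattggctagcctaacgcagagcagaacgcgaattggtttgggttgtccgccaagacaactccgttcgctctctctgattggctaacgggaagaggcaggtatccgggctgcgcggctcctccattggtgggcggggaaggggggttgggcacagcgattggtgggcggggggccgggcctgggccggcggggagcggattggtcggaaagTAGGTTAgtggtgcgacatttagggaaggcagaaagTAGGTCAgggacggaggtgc
Nr1d2, chr14:18239057-18239356, minus strand: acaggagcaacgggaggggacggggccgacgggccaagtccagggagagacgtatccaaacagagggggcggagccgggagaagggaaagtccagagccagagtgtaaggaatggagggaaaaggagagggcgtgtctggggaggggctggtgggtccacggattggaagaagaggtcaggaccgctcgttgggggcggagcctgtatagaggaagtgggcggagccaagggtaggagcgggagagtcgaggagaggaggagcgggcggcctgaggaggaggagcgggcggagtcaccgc
Dbp, chr7:45704997-45705296, plus strand: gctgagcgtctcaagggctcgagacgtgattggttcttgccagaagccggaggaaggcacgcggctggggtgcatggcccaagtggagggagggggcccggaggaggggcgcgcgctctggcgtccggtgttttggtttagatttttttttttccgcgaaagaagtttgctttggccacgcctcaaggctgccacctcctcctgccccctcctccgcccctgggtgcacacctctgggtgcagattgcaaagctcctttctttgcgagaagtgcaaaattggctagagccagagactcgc

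The printed Arntl window held TAGGTTA 6 bases before the start and TAGGTCA from position 31 after it. REV-ERB and ROR receptors are known to act through such elements. The window of the first Arntl start site held TAGGTTA alone, from position 41 after that start. None of the searched letters was in the Nr1d2 or Dbp window, and bases outside the windows were not searched. Among the members that were not called with insulin in any genotype, Per1 held an E-box 166 bases before the start, Cry1 held an E-box, an E'-box and a forkhead core at 60, 79 and 94 bases before it, and Cry2 and Nr1d1 held an E'-box at 166 and 28 bases before it. A match is a description of the letters and not a site of binding.

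At basal in Control cells, Bhlhe40 and Nr1d2 were far above the rest on a scale of CPM per kb of exon, which allows levels of different genes to be set side by side. Bhlhe40 stood at 41.4 ± 0.44 CPM per kb (SD, n = 4) and Nr1d2 at 24.8 ± 0.75. Dbp (6.18 ± 1.83), Clock (5.91 ± 1.11) and Cry1 (4.73 ± 0.42) followed, and these 3 did not differ beyond their spread. Next came Cry2 (2.86 ± 0.69), Per2 (2.70 ± 0.33), Nr1d1 (2.30 ± 0.75) and Per1 (1.93 ± 0.51), each within the spread of its neighbour, and Arntl was lowest at 1.16 ± 0.22 CPM per kb. Counts behind these levels differed greatly: over the 30 samples, Nr1d1 had 13 to 42 reads per sample, Per1 21 to 57 and Arntl 18 to 102, whereas Nr1d2 had 158 to 766 and Bhlhe40 389 to 1149. Differences in Nr1d1 and Per1 were therefore measured less precisely than in Nr1d2 and Bhlhe40.

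**Figure D1:**
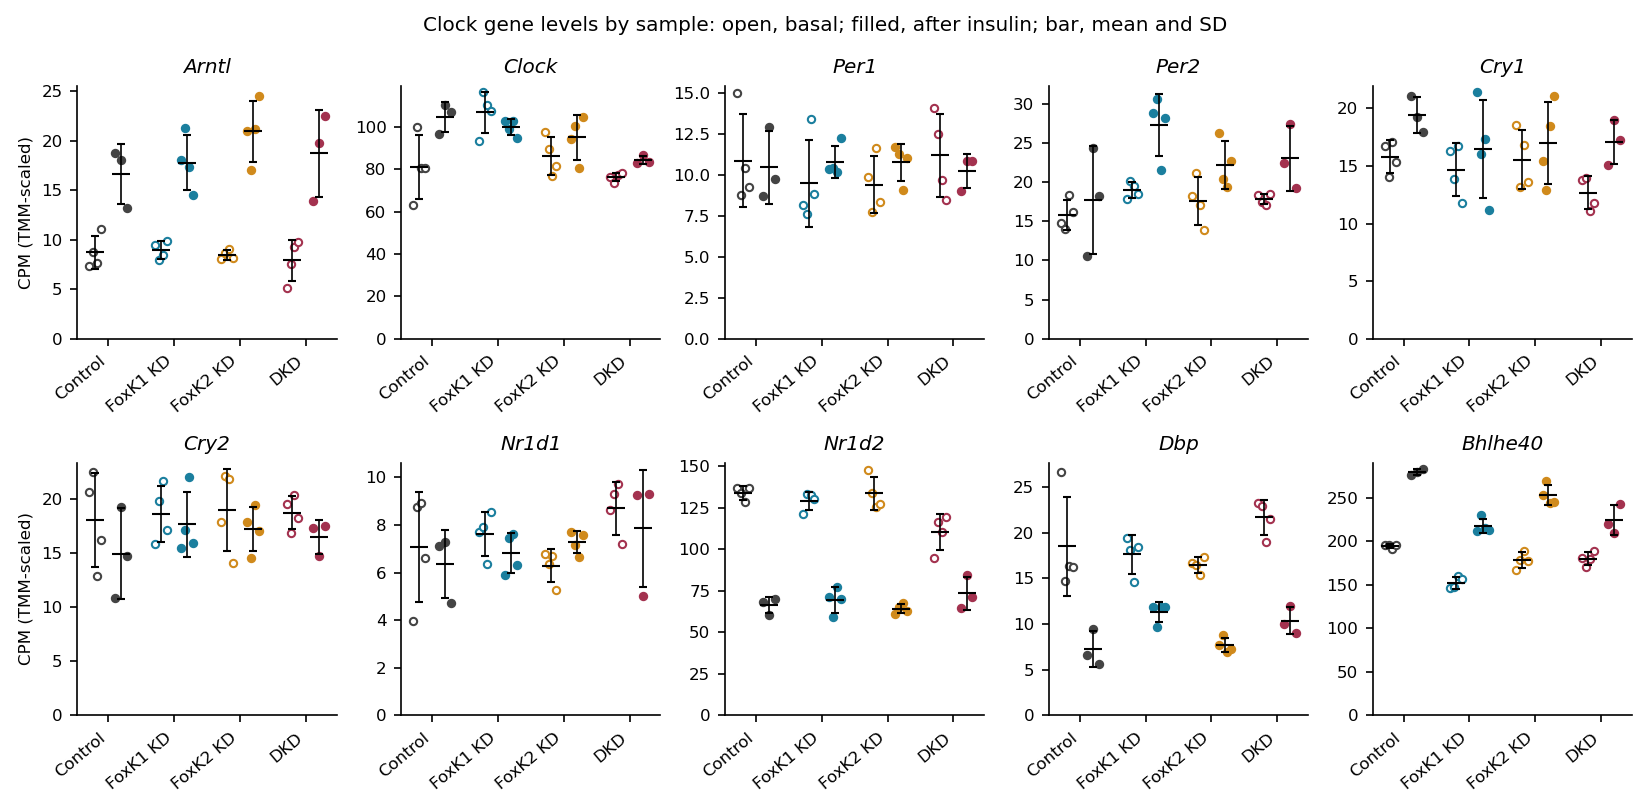
TMM-scaled CPM (vertical axes, linear, starting at 0) of the 10 clock genes in each sample of the 4 genotypes, with open points at basal, filled points after insulin, and bars for the mean and SD. Arntl and Bhlhe40 were higher, and Nr1d2 and Dbp lower, in every insulin sample than in every basal sample of the same genotype. The share of all genes tested that separated in this way was not counted.

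Insulin against basal was tested in each genotype with edgeR's quasi-likelihood test, in 1 model of the 8 groups, with Benjamini-Hochberg adjustment over the 11368 genes, and a gene was called at an adjusted p below 0.05. In Control cells 5 of the 10 members were called, 3 up and 2 down, against 25.4% of all genes (12.4% up and 13.1% down). In FoxK1 KD cells 5 were called, 3 up and 2 down, against 31.6% (16.2% up, 15.4% down). The count was 4 in FoxK2 KD cells, 2 each way, against 28.1% (14.4% up, 13.7% down), and 4 in DKD cells, 2 each way, against 16.3% (8.31% up, 7.99% down). Arntl and Bhlhe40 rose and Nr1d2 and Dbp fell in all 4 genotypes. The members' median log2 fold change lay between 0.04 and 0.17 in the 4 genotypes, and that of all genes between −0.01 and 0.01. At the study's own threshold (adjusted p below 0.25 and a fold above 1.5) 3 members were called in each genotype, namely Arntl, Nr1d2 and Dbp, against 12% of all genes in Control, 12.9% in FoxK1 KD, 10.7% in FoxK2 KD and 8.49% in DKD cells.

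Arntl (chromosome 7, 113207465 to 113314126, plus strand, GRCm38), the activator at the head of the loop, rose by 1.88 to 2.45 fold. In Control cells its replicates stood at 7.37, 8.75, 7.69 and 11.1 CPM at basal and 18.7, 18.02 and 13.2 CPM after insulin. In FoxK1 KD cells they stood at 9.50, 7.92, 8.47 and 9.90 CPM at basal and 18.1, 21.3, 17.4 and 14.5 CPM after insulin. Basal and insulin samples did not overlap in either genotype. In FoxK2 KD cells the values were 8.03, 8.71, 9.08 and 8.13 CPM at basal and 20.9, 17.1, 21.2 and 24.6 CPM after insulin. In DKD cells they were 5.17, 7.56, 9.25 and 9.76 CPM at basal and 13.9, 19.7 and 22.5 CPM after insulin. Here too every insulin sample was above every basal sample, and over the whole series the 16 basal samples reached 11.1 CPM at most while the 14 insulin samples began at 13.2 CPM. The fold was 1.88 in Control (log2 fold change 0.91, SE 0.19, adjusted p = 0.000538), 1.98 in FoxK1 KD (log2 0.98, SE 0.19, adjusted p = 0.00013), 2.45 in FoxK2 KD (log2 1.29, SE 0.17, adjusted p = 7.61e-07) and 2.37 in DKD cells (log2 1.25, SE 0.20, adjusted p = 2.84e-05). The larger folds in FoxK2 KD and DKD cells were not separated from that in Control, with differences of 0.38 (95% interval −0.15 to 0.91, adjusted p = 0.889) and 0.34 (−0.23 to 0.90, adjusted p = 0.631) on the log2 scale.

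Clock (chromosome 5, 76209868 to 76304792, minus strand), the partner of ARNTL, was called in Control cells. It rose there by a log2 fold change of 0.36 (SE 0.11, adjusted p = 0.0113), from 62.9, 100.3, 80.9 and 80.5 CPM at basal to 96.8, 111 and 107 CPM, and these ranges overlapped. The lowest of these values belongs to Control basal replicate 1, and without it the log2 fold change was 0.27 (adjusted p = 0.0406). A fit of the Control samples alone gave 0.37 (adjusted p = 0.127). In FoxK1 KD cells the log2 fold change was −0.10 (95% interval −0.30 to 0.11), in FoxK2 KD 0.14 (−0.06 to 0.35) and in DKD cells 0.14 (−0.08 to 0.37), none of them called. With GC content and gene length taken out, the FoxK2 KD value was 0.28 and was called (adjusted p = 0.00443). In DKD cells every insulin sample, 83.2 to 86.7 CPM, was above every basal sample, 73.6 to 78.3 CPM. The share of all genes tested that separated in this way was not counted, so separation without a call is a description only. The difference in insulin effect between FoxK1 KD and Control was −0.46 (SE 0.15, adjusted p = 0.211).

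Of the Period and Cryptochrome genes, Per2 (chromosome 1, 91415982 to 91459324, minus strand) was the one called, and in 1 genotype. In FoxK1 KD cells Per2 stood at 17.9, 20.1, 19.5 and 18.5 CPM at basal and 28.8, 30.6, 21.6 and 28.2 CPM after insulin. All 4 insulin samples were above the basal ones, with a log2 fold change of 0.53 (SE 0.17, adjusted p = 0.0134). Without FoxK1 KD insulin replicate 2 it was 0.46 and was not called (adjusted p = 0.0575). In DKD cells, without a call, every Per2 sample after insulin, 19.2 to 27.5 CPM, was above every basal one, 17.1 to 18.5 CPM. As for Clock, this separation is a description only. In Control cells Per2 was 14.7, 14.002, 18.4 and 16.2 CPM at basal and 10.5, 24.3 and 18.2 CPM after insulin, a spread after insulin wider than the difference (log2 0.14, 95% interval −0.24 to 0.52). The log2 fold change was 0.35 in FoxK2 KD (0.02 to 0.68, adjusted p = 0.108) and 0.34 in DKD cells (−0.03 to 0.70, adjusted p = 0.21), and the difference between FoxK1 KD and Control was 0.40 (−0.11 to 0.90, adjusted p = 0.502).

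Per1, Cry1 and Cry2 were not called in any genotype. Per1, which is known as an immediate-early gene of the clock, ran from 7.59 to 15.0 CPM at basal and from 8.70 to 13.0 CPM after insulin over all genotypes, and its 95% intervals lay between −0.58 and 0.60 on the log2 scale. Cry1 had positive log2 fold changes of 0.13 to 0.41, the largest in DKD cells (0.41, SE 0.18, adjusted p = 0.127), where 13.8, 13.96, 11.1 and 11.8 CPM at basal stood against 15.1, 18.96 and 17.2 CPM after insulin without overlap. In Control cells Cry1 did not overlap either, with 14.0 to 17.1 CPM at basal and 17.9 to 21.1 CPM after insulin. Without a call or the share of all genes that separated, these too are descriptions only. Cry2 had negative values of −0.28 to −0.08, with basal and insulin samples overlapping in each genotype. The 95% intervals of Cry1 reached 0.78 in DKD and 0.65 in Control cells and those of Cry2 reached −0.67 in Control cells, so that a p above the threshold does not show that these genes were without a change.

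Of the REV-ERB genes, whose products repress Arntl, Nr1d2 was called in every genotype and Nr1d1 in none. Nr1d2 (chromosome 14, 18204054 to 18239127, minus strand) fell to 0.494 of its basal level in Control, 0.537 in FoxK1 KD, 0.48 in FoxK2 KD and 0.66 in DKD cells. Control samples stood at 137, 134, 128 and 137 CPM at basal and 68.03, 60.7 and 69.8 CPM after insulin. FoxK1 KD samples were 122, 133, 132 and 130.0 CPM at basal and 71.3, 58.98, 77.5 and 70.2 CPM after insulin. FoxK2 KD samples were 148, 134, 126 and 127 CPM at basal and 61.3, 64.9, 67.7 and 62.7 CPM after insulin. No insulin sample of any genotype came above 84.4 CPM and no basal sample below 95.04 CPM. DKD samples held the values nearest the gap, 95.04, 117, 110.1 and 119.6 CPM at basal and 64.6, 84.4 and 71.2 CPM after insulin. The log2 fold changes were −1.02 in Control (SE 0.10, adjusted p = 9.53e-10), −0.90 in FoxK1 KD (SE 0.09, adjusted p = 2.73e-09), −1.06 in FoxK2 KD (SE 0.09, adjusted p = 3.56e-11) and −0.60 in DKD cells (SE 0.10, adjusted p = 3.09e-05). The difference between DKD and Control was 0.42 (SE 0.14, 95% interval 0.14 to 0.69), which has an unadjusted p of 0.00413 and an adjusted p of 0.114.

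Nr1d1, the other REV-ERB gene, ran from 3.97 to 9.72 CPM at basal and from 4.72 to 9.28 CPM after insulin, and its samples overlapped in every genotype. Its log2 fold changes were −0.15 in Control (95% interval −0.62 to 0.32), −0.16 in FoxK1 KD (−0.61 to 0.29), 0.22 in FoxK2 KD (−0.20 to 0.65) and −0.07 in DKD cells (−0.52 to 0.37). In each genotype the fold change of Nr1d2 lay below the lower bound for Nr1d1. This leaves out the error of the Nr1d2 value, and the difference between these genes was not tested. Of the exon bases of Nr1d1, 8.55% are shared with Thra on the opposite strand, and whether reads were counted by strand is not given in the sources used here. Thra was more abundant, with a mean of 62.7 CPM in Control cells at basal against 7.06 CPM for Nr1d1. Thra fell with insulin in Control (log2 fold change −0.31, adjusted p = 0.0339) and DKD cells (−0.39, adjusted p = 0.011) and was higher in DKD than in Control cells at basal (0.30, adjusted p = 0.0215). The part of reads from this overlap in the values of Nr1d1 was not tested.

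Dbp (chromosome 7, 45705088 to 45710203, plus strand), a PAR bZIP activator and known E-box target of the heterodimer, had the widest range of group means of the 10 genes, 1.54 on the log2 scale. In Control cells it stood at 26.7, 14.8, 16.4 and 16.2 CPM at basal and 6.59, 9.48 and 5.66 CPM after insulin. In FoxK1 KD cells it stood at 19.5, 18.2, 14.6 and 18.5 CPM at basal and 11.8, 9.71, 11.9 and 11.9 CPM after insulin. The highest basal value, 26.7 CPM, belongs to Control basal replicate 1, the library that stood apart. In FoxK2 KD cells Dbp was 16.7, 16.5, 15.3 and 17.4 CPM at basal and 7.72, 8.80, 6.98 and 7.24 CPM after insulin. DKD samples were 23.3, 22.98, 18.97 and 21.6 CPM at basal and 10.001, 11.996 and 9.06 CPM after insulin. In each genotype every insulin sample was below every basal sample, and over the series the insulin samples ended at 11.996 CPM where the basal ones began at 14.6 CPM. Dbp fell to 0.396 of its basal level in Control (log2 fold change −1.34, SE 0.19, adjusted p = 2.93e-06), 0.642 in FoxK1 KD (−0.64, SE 0.17, adjusted p = 0.00474), 0.47 in FoxK2 KD (−1.09, SE 0.17, adjusted p = 1.19e-05) and 0.466 in DKD cells (−1.10, SE 0.18, adjusted p = 3.68e-05). Without Control basal replicate 1 the Control value was −1.13 (adjusted p = 6.25e-06). The smaller fall in FoxK1 KD cells differed from Control by 0.70 (SE 0.27, 95% interval 0.16 to 1.24, unadjusted p = 0.0128, adjusted p = 0.274), and by 0.47 without that library (adjusted p = 0.543). Dbp shares 18% of its exon bases with Sphk2 on the opposite strand. Sphk2 itself fell with insulin in Control cells (log2 fold change −0.57, SE 0.18, adjusted p = 0.0154), and had values of 0.05, −0.04 and −0.23 in FoxK1 KD, FoxK2 KD and DKD cells with adjusted p of 0.406 or more. The part of reads from the overlap in the values of Dbp was not tested.

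Bhlhe40 (chromosome 6, 108660629 to 108666925, plus strand), the repressor that competes with the heterodimer for E-boxes and the most abundant member, rose in all 4 genotypes. Control samples stood at 195, 196, 192 and 196 CPM at basal and 277, 279.7 and 284 CPM after insulin. FoxK1 KD samples were 146, 147, 159.7 and 157 CPM at basal and 212, 230.3, 215 and 213 CPM after insulin. FoxK2 KD samples were 167, 179, 189 and 178 CPM at basal and 253, 269, 244 and 245 CPM after insulin. The SDs were smallest in Control cells, 2.09 CPM at basal and 3.66 CPM after insulin. They reached 11.5 CPM in FoxK2 KD and 17.2 CPM in DKD cells after insulin. The insulin samples never overlapped with the basal ones. DKD samples were 181, 171, 180.0 and 189 CPM at basal and 219.8, 209.7 and 243 CPM after insulin. The fold was 1.44 in Control (log2 fold change 0.52, SE 0.07, adjusted p = 4.45e-07), 1.43 in FoxK1 KD (0.51, SE 0.07, adjusted p = 2.75e-07), 1.42 in FoxK2 KD (0.50, SE 0.06, adjusted p = 2.55e-07) and 1.25 in DKD cells (0.32, SE 0.07, adjusted p = 0.00132). The DKD value was 0.21 below that in Control (95% interval −0.40 to −0.01), with an unadjusted p of 0.0424 and an adjusted p of 0.321.

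**Figure D2:**
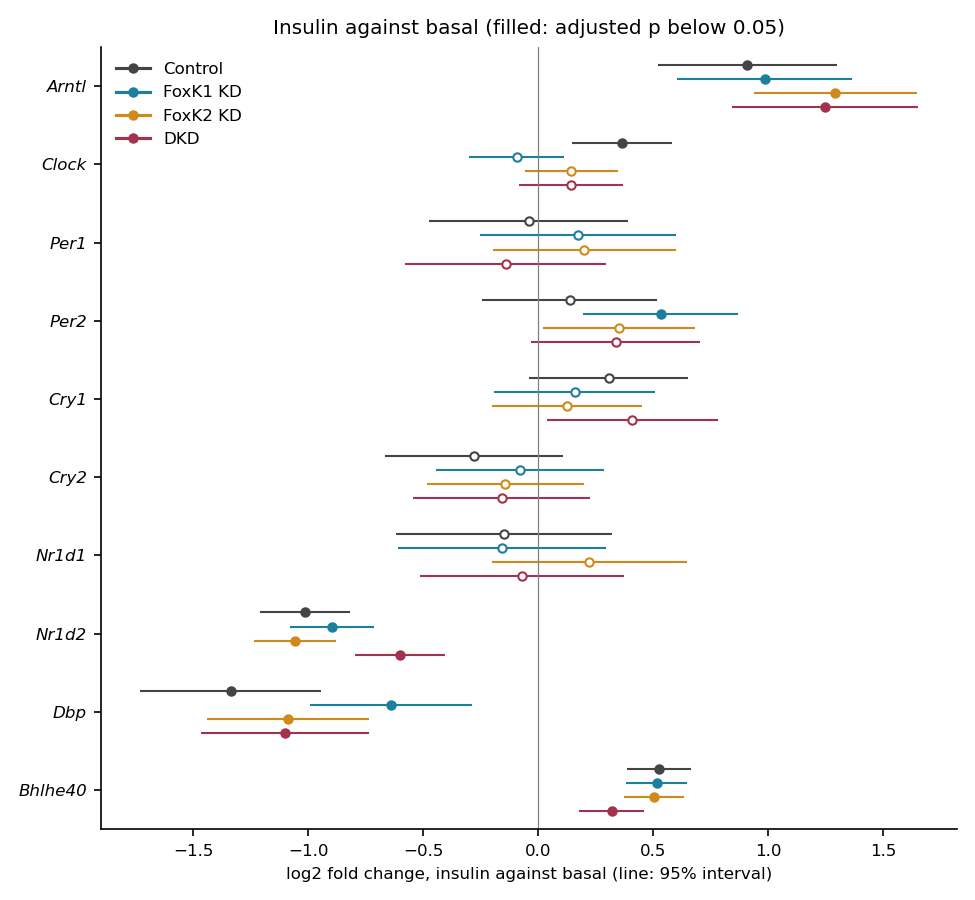
Log2 fold change, insulin against basal (horizontal axis), of each clock gene by genotype (Control, FoxK1 KD, FoxK2 KD, DKD), with lines for the 95% interval and filled points at an adjusted p below 0.05. Arntl and Bhlhe40 lie to the right of 0 and Nr1d2 and Dbp to the left in all 4 genotypes, and the intervals of Per1, Cry2 and Nr1d1 span 0 in each.

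The test of the difference in insulin effect between a knockdown and Control called no member in FoxK1 KD, FoxK2 KD or DKD cells. All genes gave 0% for FoxK1 KD, 0% for FoxK2 KD and 1.54% for DKD cells with edgeR. At an unadjusted p below 0.05 there were 2 members in FoxK1 KD (Clock and Dbp), 0 in FoxK2 KD and 2 in DKD cells (Nr1d2 and Bhlhe40), and DESeq2 and limma-voom called no member in any of the 3. Over all genes, 1519, 625 and 1661 had an unadjusted p below 0.05, DESeq2 called 7, 0 and 234, and limma-voom 0, 0 and 168. At the study's threshold no member passed either, against 1.55%, 0% and 4.04% of all genes. The standard errors of these differences ran from 0.09 for Bhlhe40 to 0.32 for Nr1d1, and a p that misses the threshold does not show that the response was alike.

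Each knockdown was next set against Control at basal. In FoxK1 KD cells 2 members were called against Control, Clock up and Bhlhe40 down, beside 8.09% of all genes (26.6% at the study's threshold, with the same count of 2 members). Bhlhe40 was lower in all 4 FoxK1 KD samples, 146 to 159.7 CPM, than in all 4 Control samples, 192 to 196 CPM, a fall to 0.783 of Control (log2 fold change −0.35, SE 0.06, adjusted p = 0.000613). Clock was 93.5, 117, 110.3 and 108 CPM in FoxK1 KD cells, overlapping with Control at one end, and rose by 0.39 on the log2 scale (SE 0.10, adjusted p = 0.0119). Without Control basal replicate 1 the value of Clock was 0.30 with an adjusted p of 0.0568, while Bhlhe40 kept its call (−0.35, adjusted p = 0.00144). A fit of the FoxK1 KD and Control basal samples alone called neither gene, though the log2 fold changes were as large, 0.40 for Clock (adjusted p = 0.19) and −0.35 for Bhlhe40 (adjusted p = 0.0853).

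FoxK2 KD cells at basal had no member called, beside 0.378% of all genes (3.59% at the study's threshold). No member had an unadjusted p below 0.05 in edgeR, and DESeq2 and limma-voom called none. Bhlhe40 had the lowest p, with a log2 fold change of −0.13 (95% interval −0.26 to 0.00, adjusted p = 0.468), and Nr1d2 differed from Control by −0.01 (−0.17 to 0.16).

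In DKD cells at basal 1 member was called, beside 21.1% of all genes. It was Nr1d2, at 95.04, 117, 110.1 and 119.6 CPM against 128 to 137 CPM in Control, without overlap (log2 fold change −0.28, SE 0.08, adjusted p = 0.0165). The call was lost without DKD basal replicate 1, the lowest of these samples (−0.22, adjusted p = 0.091), with only the groups compared (−0.28, adjusted p = 0.0713), and after GC content and gene length were taken out (−0.13, adjusted p = 0.287). This contrast crosses the split of libraries described above. The place of Nr1d2 in that split rests on this same non-overlap and is not a separate result. The part in the value of whatever sets those libraries apart was not tested. At the study's threshold 4 members passed, Nr1d2, Cry1 (log2 fold change −0.30), Dbp (0.26) and Bhlhe40 (−0.11), beside 43.6% of all genes. Dbp stood at 23.3, 22.98, 18.97 and 21.6 CPM in DKD cells, and without Control basal replicate 1 its log2 fold change over Control was 0.46 (SE 0.13, adjusted p = 0.00997) in place of 0.26 (adjusted p = 0.221).

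After insulin the same contrast gave 2 members in FoxK1 KD cells, beside 3.59% of all genes. Bhlhe40 was again lower, 212 to 230.3 CPM against 277 to 284 CPM in Control (log2 fold change −0.36, SE 0.07, adjusted p = 0.00142). Per2 was higher, 28.8, 30.6, 21.6 and 28.2 CPM against 10.5, 24.3 and 18.2 CPM, with overlap (log2 fold change 0.65, SE 0.19, adjusted p = 0.0402). The Per2 value rests on the low sample of Control: without Control insulin replicate 1 it was 0.36 (adjusted p = 0.324), and the call was also lost without Control insulin replicate 3 or FoxK1 KD insulin replicate 1, 2 or 4, with log2 fold changes of 0.59 to 0.67, and with only the groups compared (0.66, adjusted p = 0.101). Dbp had a value of 0.65 as well (SE 0.22, adjusted p = 0.0969) and was the third member at the study's threshold, where 15.1% of all genes passed.

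FoxK2 KD cells after insulin had no member called, beside 0.0264% of all genes and 0.238% at the study's threshold. Bhlhe40 was the 1 member at an unadjusted p below 0.05 (log2 fold change −0.15, adjusted p = 0.789), and DESeq2 and limma-voom called none. DKD cells after insulin had 1 member, Bhlhe40, beside 1.21% of all genes, at 219.8, 209.7 and 243 CPM and without overlap with Control (log2 fold change −0.32, SE 0.07, adjusted p = 0.0185). This call was lost without Control insulin replicate 3, DKD insulin replicate 1 or DKD insulin replicate 2, with adjusted p of 0.0702 to 0.106 and log2 fold changes of −0.32 to −0.29. It was also lost with the looser filter (−0.32, adjusted p = 0.179) and with only the groups compared (−0.32, adjusted p = 0.199). At the study's threshold Clock (log2 fold change −0.31, adjusted p = 0.204) joined it, beside 6.66% of all genes. The 3 knockdowns share their Control samples in each of these contrasts, so that their values are not independent of each other and are only set side by side.

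**Figure D3:**
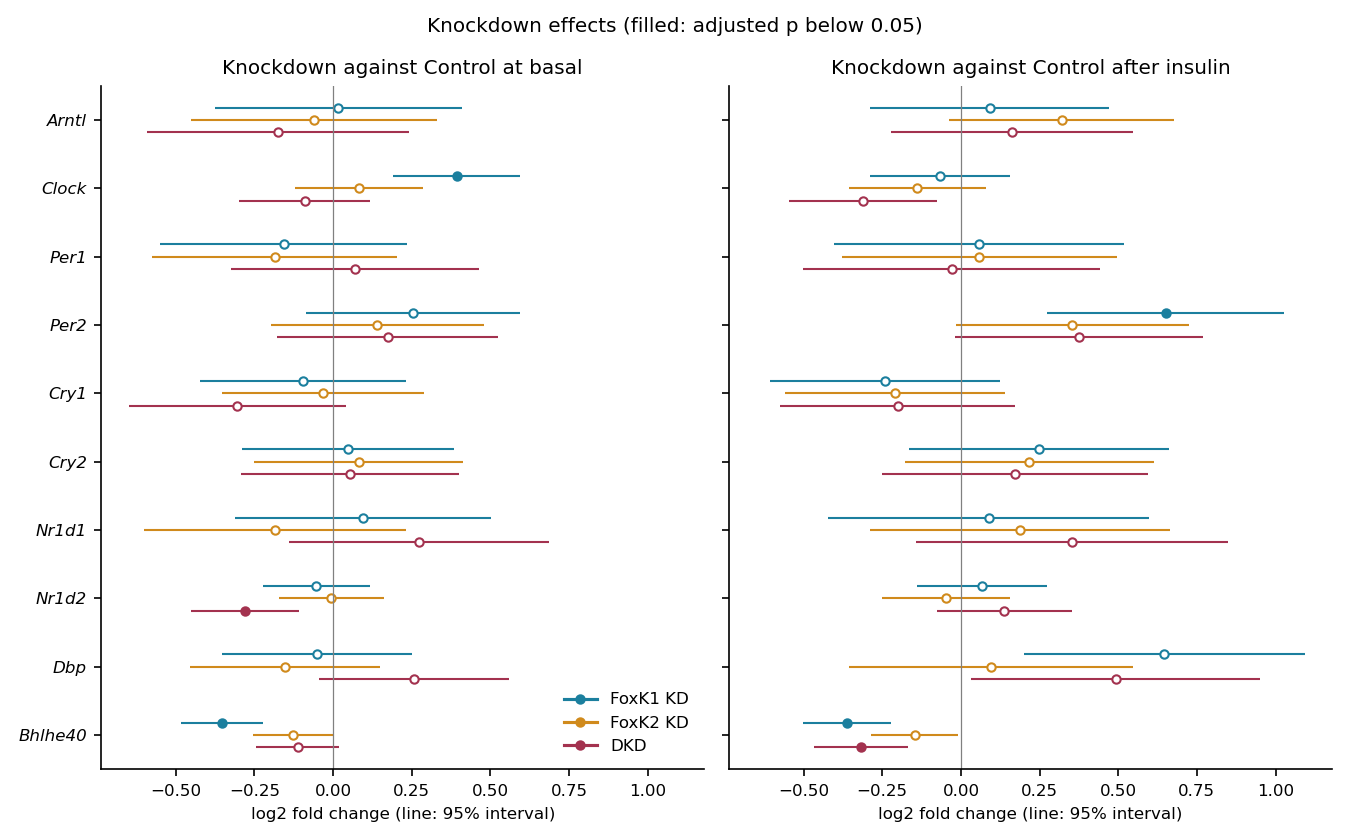
Log2 fold change of each clock gene in FoxK1 KD, FoxK2 KD and DKD cells against Control (horizontal axes) at basal (left) and after insulin (right), with lines for the 95% interval and filled points at an adjusted p below 0.05. Bhlhe40 lies left of 0 in all 6 contrasts and is called in 3 of them, both FoxK1 KD contrasts and DKD after insulin. The contrasts within a panel share their Control samples and are not independent.

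DKD cells were also set against FoxK1 KD cells, a comparison added after the values were seen. At basal 3 members were called, beside 26.3% of all genes: Clock was lower in DKD (log2 fold change −0.48, SE 0.10, adjusted p = 0.000817), Nr1d2 was lower (−0.23, SE 0.09, adjusted p = 0.0467) and Bhlhe40 was higher (0.24, SE 0.07, adjusted p = 0.00692). Each DKD sample at basal, 73.6 to 78.3 CPM of Clock, was below each FoxK1 KD sample, 93.5 to 117 CPM. After insulin edgeR called no member, beside 0.352% of all genes, and Clock had the largest interval away from 0 (−0.25, 95% interval −0.47 to −0.02, adjusted p = 0.452).

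Other genes of the clock were counted from a list of 21, of which 17 passed the filter. With insulin 9 were called in Control cells (4 up, 5 down), 9 in FoxK1 KD (5 up, 4 down), 9 in FoxK2 KD (5 up, 4 down) and 6 in DKD cells (5 up, 1 down), beside the shares of all genes given above. Nfil3, a repressor that competes with DBP for D-boxes, rose in all 4 genotypes, from a mean of 13.8 ± 1.82 CPM (SD, n = 4) to 27.3 ± 2.75 CPM (n = 3) in Control cells (log2 fold change 0.99, SE 0.14, adjusted p = 2.77e-06), by 0.97 in FoxK2 KD (adjusted p = 1.01e-06) and by 0.57 in DKD cells (adjusted p = 0.00711). Noct, which encodes the rhythmic protein nocturnin, also rose in all 4, with log2 fold changes of 1.20 in Control (SE 0.18, adjusted p = 3.77e-06) and 1.06 in FoxK1 KD cells (SE 0.17, adjusted p = 1.38e-05). Its values were lower in DKD (0.69, adjusted p = 0.00856) and FoxK2 KD cells (0.45, adjusted p = 0.0385), and the difference between FoxK2 KD and Control, −0.75, had an unadjusted p of 0.00368 and an adjusted p of 0.883. Nampt, the rate-limiting enzyme of NAD salvage, rose in all 4, by 0.56 in DKD cells (SE 0.11, adjusted p = 0.000545).

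Of the genes that set the stability of clock proteins, Fbxw11, a ligase subunit for phosphorylated PER, fell with insulin in 3 genotypes, by 0.43 on the log2 scale in FoxK1 KD (SE 0.07, adjusted p = 4.18e-05), 0.24 in FoxK2 KD (adjusted p = 0.0121) and 0.22 in Control cells (adjusted p = 0.0374), and had a value of −0.01 in DKD cells (adjusted p = 0.948). Of the other kinase and ligase genes tested, Csnk1e was called down in 2 genotypes and Gsk3b in 1. Csnk1d, Fbxl21 and Btrc were not called in any. Across D-box factors the direction differed: Dbp fell and its competitor Nfil3 rose in every genotype, and Tef was called down in 3 genotypes.

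Against Control, the list gave 1 gene in FoxK1 KD at basal (Timeless, log2 fold change −0.54, adjusted p = 0.0328), beside 8.09% of all genes, none in FoxK2 KD and 3 of 17 in DKD cells, where 21.1% of all genes were called. All 3 were lower: Wee1 (−0.52, adjusted p = 0.000354), Fbxw11 (−0.39, adjusted p = 0.000253) and Gsk3b (−0.31, adjusted p = 0.00588). After insulin there were 1 in FoxK1 KD (Fbxw11, −0.27, adjusted p = 0.0496), beside 3.59% of all genes, and edgeR called none in FoxK2 KD or DKD cells. For FoxK2 KD, 2 genes of the list at basal and 2 after insulin had an unadjusted p below 0.05, as did 4 for DKD after insulin, and DESeq2 and limma-voom called none in these 3 comparisons.

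**Figure D4:**
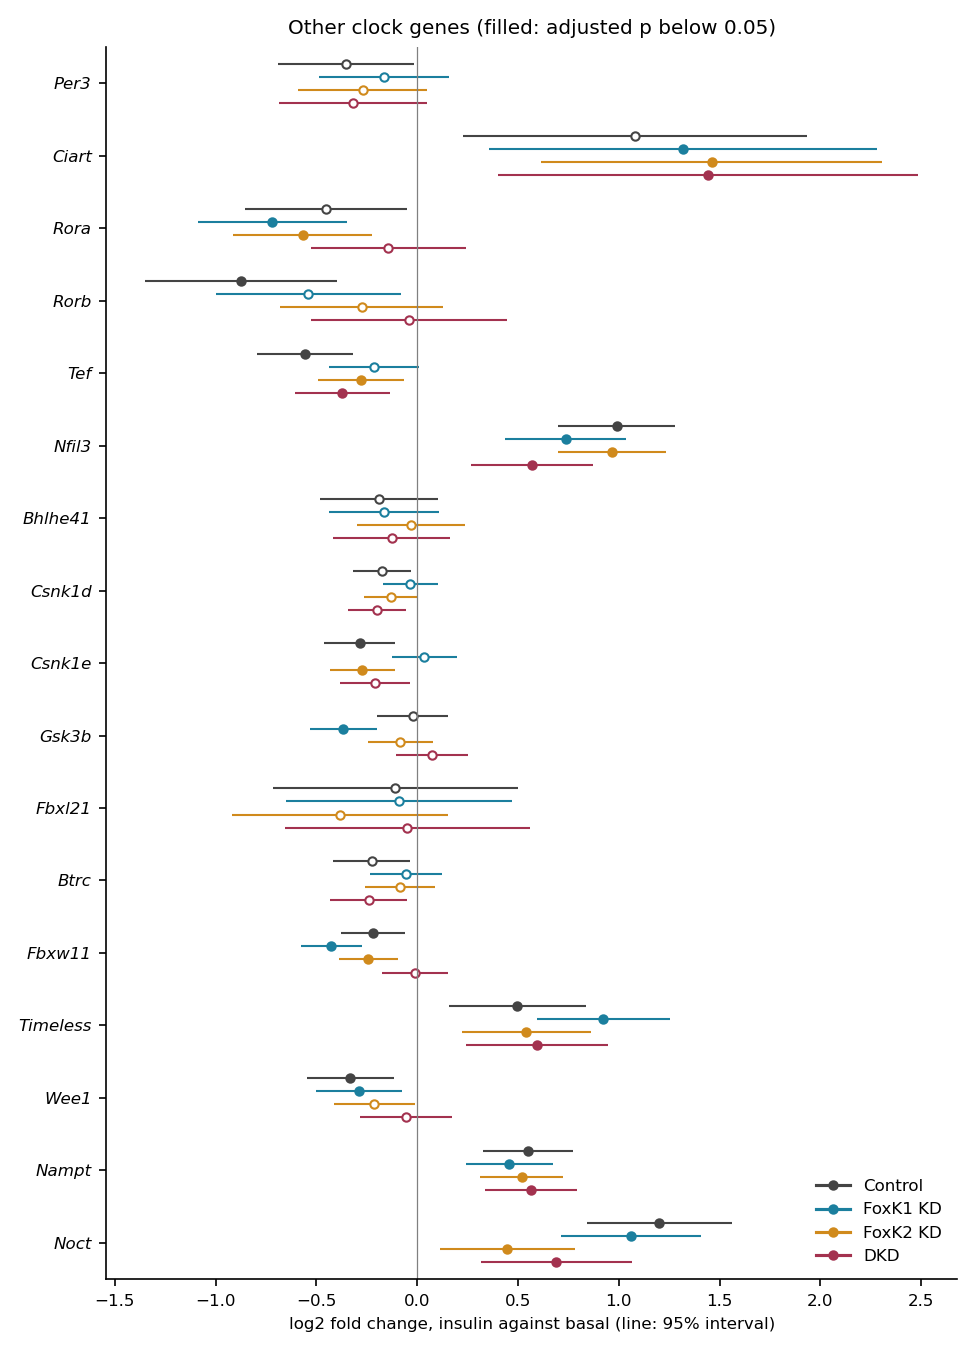
Log2 fold change, insulin against basal (horizontal axis), of the 17 other clock genes that passed the filter, by genotype (Control, FoxK1 KD, FoxK2 KD, DKD), with lines for the 95% interval and filled points at an adjusted p below 0.05. Nfil3, Timeless, Nampt and Noct are called above 0 in all 4 genotypes.

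Over the 30 samples, Pearson's r of log2 CPM was −0.85 between Arntl and Nr1d2 and −0.85 between Dbp and Bhlhe40, members that moved in opposite directions with insulin. It was 0.83 between Nr1d2 and Dbp and 0.77 between Arntl and Bhlhe40, which moved the same way. These points share the basal and insulin groups. After each group's mean was taken out, r was 0.15 for Arntl and Nr1d2, −0.27 for Dbp and Bhlhe40, 0.06 for Nr1d2 and Dbp and 0.19 for Arntl and Bhlhe40. The gene most like Dbp among all 11368 was Ypel3 (r = 0.93), that most like Arntl was Mlec (r = 0.91), that most like Nr1d2 was Irs2 (r = 0.95) and that most like Bhlhe40 was Lss (r = 0.96), each over 30 samples and as a description only.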

How the data were processed

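The data are RNA-seq counts of 30 AML12 samples in 8 groups, taken from the labels. The authors deposited raw counts, the reads assigned to each of 49089 versioned Ensembl identifiers, not normalized. The submitters' processing notes name CASAVA 1.8, STAR 2.4.2a, featureCounts and GRCm38.p4. Settings such as strand are not given in the sources used here. Symbols, positions, GC content and exon lengths came from GENCODE M21, which held 48435 of the identifiers.

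Genes were kept by edgeR's filterByExpr, scaled by TMM and fitted with edgeR 4.0.16 (R 4.3.3) in 1 quasi-likelihood model of 8 group means with all 30 samples. The Benjamini-Hochberg adjustment ran over the 11368 genes tested, and calls were made at an adjusted p below 0.05 because the study's 0.25 lets 1 in 4 calls be false. Standard errors were derived from the F statistic. CPM are TMM-scaled counts without a prior count. Correlations used log2 CPM with a prior count of 2. The script was tested on simulated data.

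The members, the list of 21 other clock genes and the markers were chosen with earlier results of these data known. Some genes planned for the list are not reported here. All 10 members are named, and the gene most like a member is named for the 4 members with the widest range of group means. Values of other clock genes were planned for at most the 3 with the lowest adjusted p in a comparison. Some are also given in genotypes where they ranked lower, such as Fbxw11 with insulin in DKD cells, where it was not called. Depth was 2141460 to 5668270 counts per sample, so genes near 10 counts were measured coarsely. Alternatives were DESeq2 1.42.0, limma-voom (limma 3.58.1), a looser filter (1 count in any sample), a stricter one (10 counts in every sample), only the groups compared, the replicate number as a block, GC content and length taken out, the study's thresholds, and leaving out each sample in turn. Replicates were compared by a chi-square statistic, whose lowest value was 1.75 per degree of freedom over 42 pairs, and none was a copy of another.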

Additional observations from a re-analysis of the deposited data

Results flagged for a closer look

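In the 6 groups of 4 samples, 5 of 60 gene and group combinations had 1 sample far from the other 3, with a gap to the nearest that was above Dixon's critical value for 4 samples as a share of the whole range. Chance flags about 1 in 20. Dbp stood at 26.7 CPM in Control basal replicate 1, above 14.8 to 16.4 CPM in the others, and at 9.71 CPM in FoxK1 KD insulin replicate 2, below 11.8 to 11.9 CPM. Bhlhe40 stood at 192 CPM in Control basal replicate 3, below 195 to 196 CPM, and at 230.3 CPM in FoxK1 KD insulin replicate 2, above 212 to 215 CPM. Per1 stood at 12.2 CPM in FoxK1 KD insulin replicate 4, above 10.2 to 10.5 CPM. FoxK1 KD insulin replicate 2 appears for both Dbp and Bhlhe40, and Control basal replicate 1 is the library that stood apart over all genes. What sets these samples apart was not tested.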

How the results depend on the processing

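Arntl, Nr1d2, Dbp and Bhlhe40 kept their direction and their call at an adjusted p below 0.05 for insulin against basal in all 4 genotypes under every alternative that kept this threshold, with adjusted p of at most 0.0253. At the study's thresholds Bhlhe40 lost its insulin call in all 4 genotypes, as did Clock in Control and Per2 in FoxK1 KD cells, since their folds were under 1.5. No value of a called member changed sign. Over the alternatives other than the study's thresholds 2069 of 2090 member values kept their side of the threshold, 19 lost a call and 2 gained one. Only 347 of the 2090 values belonged to a call of the main fit and could lose it. The calls of knockdowns against Control were less stable. Per2 in FoxK1 KD after insulin lost its call in 6 of 14 alternatives. Bhlhe40 in DKD after insulin lost it in 5 of 13, and Nr1d2 in DKD at basal in 3 of 15. In FoxK1 KD at basal, Clock lost it in 2 and Bhlhe40 in 1 of 15, and Bhlhe40 in FoxK1 KD after insulin in 0 of 14. With only the groups compared, the number of members called was 0 for FoxK1 KD and 0 for DKD at basal, and 1 for FoxK1 KD and 0 for DKD after insulin. The looser filter left 0 for DKD after insulin, and taking out GC content and length left 0 for DKD at basal, while it added Clock for insulin in FoxK2 KD (log2 fold change 0.28, adjusted p = 0.00443). The study's threshold gave 4 for DKD at basal, 2 for DKD after insulin, and 3 for insulin in both Control and FoxK1 KD. Leaving out 1 sample gave 1 to 2 members for FoxK1 KD at basal, 0 to 2 for DKD at basal, 1 to 2 for FoxK1 KD after insulin and 0 to 1 for DKD after insulin. The cause of these losses was not tested, except that fits of only the groups compared, and those leaving out 1 sample, rest on fewer samples.

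The replicate numbers of the labels did not pair the samples: deviations from the group means of same-numbered samples had a mean correlation of −0.01 over 99 pairs, against 0.00 over 294 other pairs, and 3 of 30 samples correlated best with their own number. With the replicate block the counts of members called were the same in every comparison, for example 5 for insulin in Control, 2 for FoxK1 KD and 1 for DKD against Control at basal. At 13 to 42 reads of Nr1d1 and 21 to 57 of Per1 per sample, counting error limits the precision of single samples.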
